A study of Mus musculus with 8 samples.

Results

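Mouse embryonic stem cells given 4-hydroxytamoxifen (4OHT) were compared with cells given its ethanol vehicle, with transcription blocked by actinomycin D in both. The comparison uses 5 of the 8 arrays of the series, taken by the titles and descriptions of the samples: 3 arrays with 4OHT and 2 with vehicle. All cells grew in embryonic stem cell medium with the self-renewal cytokine LIF and with 250 nM PD173074, an inhibitor of FGF receptors, so the controls carry the inhibitor too. Actinomycin D was given at 5 µM, and 30 min later the cells received either 250 nM 4OHT or ethanol for 4 h. The remaining 3 arrays hold cells labelled untreated (0 h), which enter the estimate of the spread and serve here as a reference level. Their titles nevertheless carry an abbreviation of actinomycin D, so each untreated value rests on the treatment label. The labels give no cell line, strain or genetic change, and they name no protein on which 4OHT acts. According to the design text each condition had 3 biological replicates, of which 2 with vehicle are analysed here. The 3 arrays with 4OHT lay on 1 slide, while both vehicle arrays lay on the other slide with the untreated arrays. Slide and 4OHT therefore cannot be told apart in any difference given below.

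Fibroblast growth factors bind receptor tyrosine kinases, which signal through Ras to the kinases Raf, Mek and Erk. In embryonic stem cells this pathway drives early response genes and its own feedback inhibitors, and blocking it favours the naive pluripotent state. Once actinomycin D has stopped RNA synthesis, the amount of an mRNA left after a given time depends on how fast it decays. The series title names Erk as a regulator of mRNA degradation, and the contrast of 4OHT with vehicle asks which mRNAs are left in different amounts at the end of such a chase. 4OHT itself binds the oestrogen receptor and is widely used to switch on proteins fused to a mutant hormone-binding domain of that receptor.

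Levels are the log2 processed signal of a probe minus the 75th percentile of its array. A difference is the mean of the 4OHT arrays minus the mean of the vehicle arrays on that scale, with its standard error, and was called where limma's Benjamini-Hochberg adjusted p was under 0.05. A higher level with 4OHT may thus mean no more than a smaller loss than with vehicle, each relative to the 75th percentile of its array. In bulk RNA, fewer cells of a type and less RNA per cell cannot be told apart. The 75th percentile was 166 and 205 with vehicle and 209, 180 and 182 with 4OHT, and 53 to 60% of spots were well above background on these 5 arrays. On vehicle replicate 1, replicated probes varied more (median coefficient of variation 20.5%) than on the other arrays (11.9 to 14.3%). Correlations across features, which are not independent replicates, were 0.9905 between the vehicle arrays, 0.991 to 0.994 among the 4OHT arrays and 0.985 to 0.99 between the groups. The median absolute difference was 0.22 between the vehicle arrays and 0.20 between the group means, which average several arrays and so carry less noise than single arrays. All 8 embryonic stem cell markers were well above background on all 5 arrays. Of the markers of other cells that such a culture can hold, 8 of 15 for feeder fibroblasts, 14 of 23 for primitive endoderm, 7 of 12 for trophoblast and 6 of 14 for mesendoderm and neuroectoderm were also well above background throughout.

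With 4OHT, 263 of 28493 features were higher (0.923%) and 734 were lower (2.58%), which is 3.5% in either direction. Among the 14932 features with a gene symbol, 198 were higher (1.33%) and 459 lower (3.07%). A change of at least 2-fold was reached by 78 of the higher (0.274% of all features) and 290 of the lower features (1.02%). The median called difference was 0.78 for the higher and −0.89 for the lower features, against −0.05 over all features. In every called feature, the 3 arrays with 4OHT lay wholly above or wholly below both vehicle arrays. Such a lack of overlap was itself common, with 13.5% of all features above and 24.8% below. Unadjusted limma p-values under 0.05 were common too, in 5459 of the 28493 features and in 3004 of the 14932 with a symbol. The counts of gene list members below, adjusted or unadjusted, are to be read against these figures and the shares above. All list members carry a symbol, so 1.33% higher and 3.07% lower are the like shares for them. The split between the directions depends on the scale: 26.4% of called features were higher relative to the 75th percentile, but 3.24% (40 higher, 1196 lower) relative to 8 spike-in control probes. These spike-in probes stood −0.11 to 0.51 apart between the groups on the main scale, with a mean of 0.31, and on their scale the median over all features was −0.36. The 10 of 96 ERCC control probes that were well above background on all 8 arrays differed by −0.36 to −0.02 (median −0.28). These probes were dim, at levels of −4.16 to −0.42, and whether ERCC RNA was added is not known here. The ERCC probes therefore cannot decide between the scales. The spike-in probes themselves differed over the range given above, so which scale is right was not settled.

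**Figure D1:**
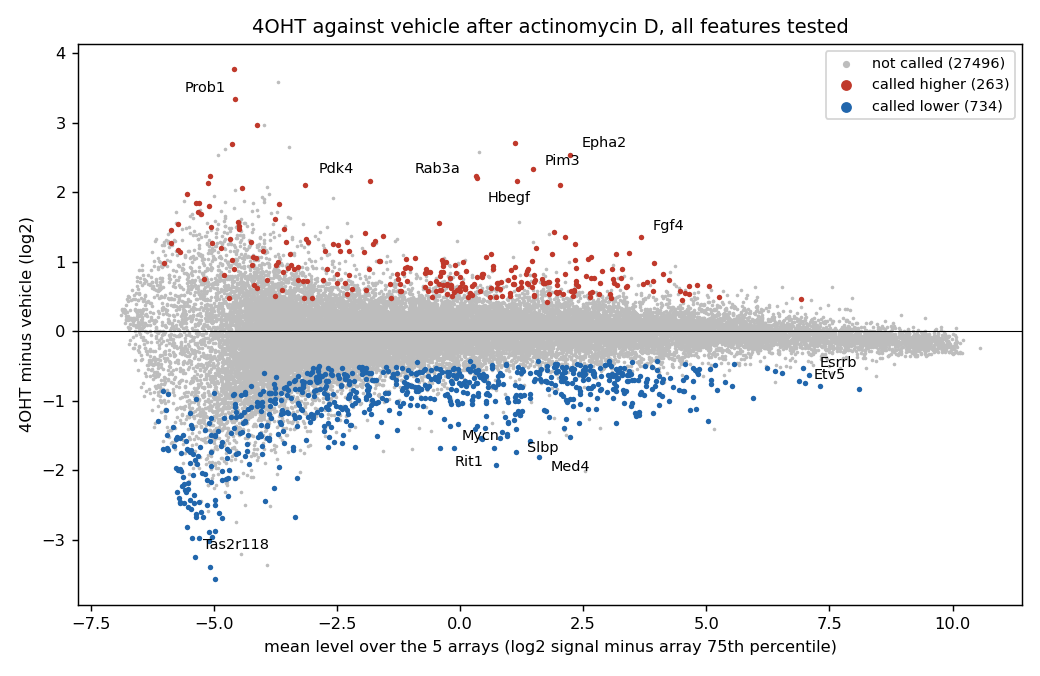
Difference between 4OHT and vehicle (log2) against the mean level over the 5 arrays (log2 signal minus the array's 75th percentile) for all 28493 features, with called features in colour. Epha2, Pim3, Hbegf, Pdk4 and Rab3a lie above 2 among measured features, Med4, Slbp and Rit1 lie near −1.7, and many called features lower with 4OHT crowd at the dim end on the left.

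The called features were spread over the whole range of signal but not evenly. Among the dimmest 5699 features 43 were higher and 170 lower, with 31 and 147 of them past 2-fold, and the median difference was −0.16. Among the brightest 5699 features 29 were higher and 103 lower, with 3 and 14 past 2-fold, and the median difference was −0.05. The highest share of calls lay among the 5698 features next below these in signal, at 1.7% higher and 3.39% lower. Of the called features, 219 higher and 554 lower ones were well above background on all 5 arrays, and the named differences below are from those unless a bound is given.

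Growth factor ligands and their receptors held several of the largest rises. Hbegf, a membrane-bound ligand of the EGF receptor, stood at −0.19 and −0.10 on the vehicle arrays and at 1.93, 2.13 and 2.0 with 4OHT. The untreated arrays read 1.96, 1.96 and 2.11, so the 4OHT arrays lay among or close to the untreated arrays while both vehicle arrays lay far below. The difference was 2.17 ± 0.10 (4.49-fold, adjusted p = 0.00161). Epha2, a receptor kinase for ephrins, read 0.55 and 0.88 with vehicle and 3.10, 3.37 and 3.30 with 4OHT, against a mean of 3.93 untreated. That difference of 2.54 ± 0.17 (5.82-fold, adjusted p = 0.00286) was larger than the gap between the vehicle arrays. Fgf4, the FGF that embryonic stem cells make themselves, read 2.74 and 2.99 with vehicle, 4.26, 4.18 and 4.23 with 4OHT and 6.50 on average untreated. Fgf4 was thus higher by 1.36 ± 0.14 (2.56-fold, adjusted p = 0.009), but in both groups it stood well below its untreated level. Pvr, a cell adhesion receptor, was higher by 1.19 ± 0.11 (adjusted p = 0.00655), at 0.96 and 0.70 with vehicle and 1.99, 2.07 and 1.99 with 4OHT. Its untreated mean was 1.42, so the 4OHT arrays lay above the untreated level on this scale. Plaur, the urokinase receptor, was higher by 0.83 ± 0.10 (adjusted p = 0.0142) and its 4OHT arrays, at 2.44 to 2.47, lay close to each other and above 1.65 and 1.61 with vehicle.

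Smaller rises in the same families were less secure. Fgf15, an FGF of the early embryo, was higher by 1.14 ± 0.21 (adjusted p = 0.0404; 0.48 with normexp background correction, adjusted p = 0.089). Fgfrl1, a receptor-like protein without a kinase domain, stood at 0.68 ± 0.13 (adjusted p = 0.0451; 0.37 and 0.141 with normexp). Errfi1, an intracellular inhibitor of EGF receptors, stood at 0.61 ± 0.12 (adjusted p = 0.0487; 0.28 and 0.235 with normexp). Among 18 measured FGF ligands and receptors, Fgf4, Fgf15 and Fgfrl1 were the 3 called higher (16.7%) and 0 were lower (1 lower at an unadjusted p under 0.05 in limma). Of all features 0.923% were higher, and 1.33% of those with a symbol. The median of the list, 0.24, turned to −0.07 relative to the spike-in probes. Of these 3 calls, 1 was left with scaling to the array median or to the spike-in probes and 0 in limma without scaling. Among 14 measured EGF ligands and ErbB receptors, Hbegf and Errfi1 were higher (14.3%) and 0 lower (1 lower unadjusted in limma). The median of that list was 0.32 (0.01 relative to the spike-in probes). Eph receptors and ephrins had 1 rise, Epha2, and 1 fall among 19 measured members (5.26% each, against 1.33% higher and 3.07% lower of features with a symbol). The fall was of Efna4, an ephrin ligand, at −0.90 ± 0.14 (adjusted p = 0.023), from −0.70 and −0.43 with vehicle to −1.59, −1.36 and −1.45.

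For 2 secreted factors only a bound can be given, because neither vehicle array was well above background. Edn1, the vasoactive peptide endothelin, was at least 1.81-fold higher with 4OHT (adjusted p = 0.00903), and Gdf15, a stress-induced cytokine, at least 1.80-fold (adjusted p = 0.024). With normexp neither passed, at 0.12 (adjusted p = 0.651) and 0.10 (adjusted p = 0.728). Nppb, a natriuretic peptide, was measured on all 5 arrays and was higher by 1.28 ± 0.20 (adjusted p = 0.023; 0.43 and 0.0364 with normexp). Its mean was −3.06 with vehicle, −1.78 with 4OHT and −2.70 untreated. Hbegf, Epha2, Pvr and Edn1 kept their calls whichever of the 8 arrays was left out. Fgf4 lost its call without vehicle replicate 1 (adjusted p = 0.0533), and Plaur without either vehicle array or 4OHT replicate 2 (0.0585 to 0.0704). Fgfrl1 and Errfi1 lost theirs without any 1 of the 8 arrays (up to 0.153 and 0.165), as did Fgf15 without 7 of them (up to 0.177). Gdf15, Nppb and Efna4 were likewise lost without vehicle replicate 1 (0.11, 0.124 and 0.0666), among others.

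**Figure D2:**
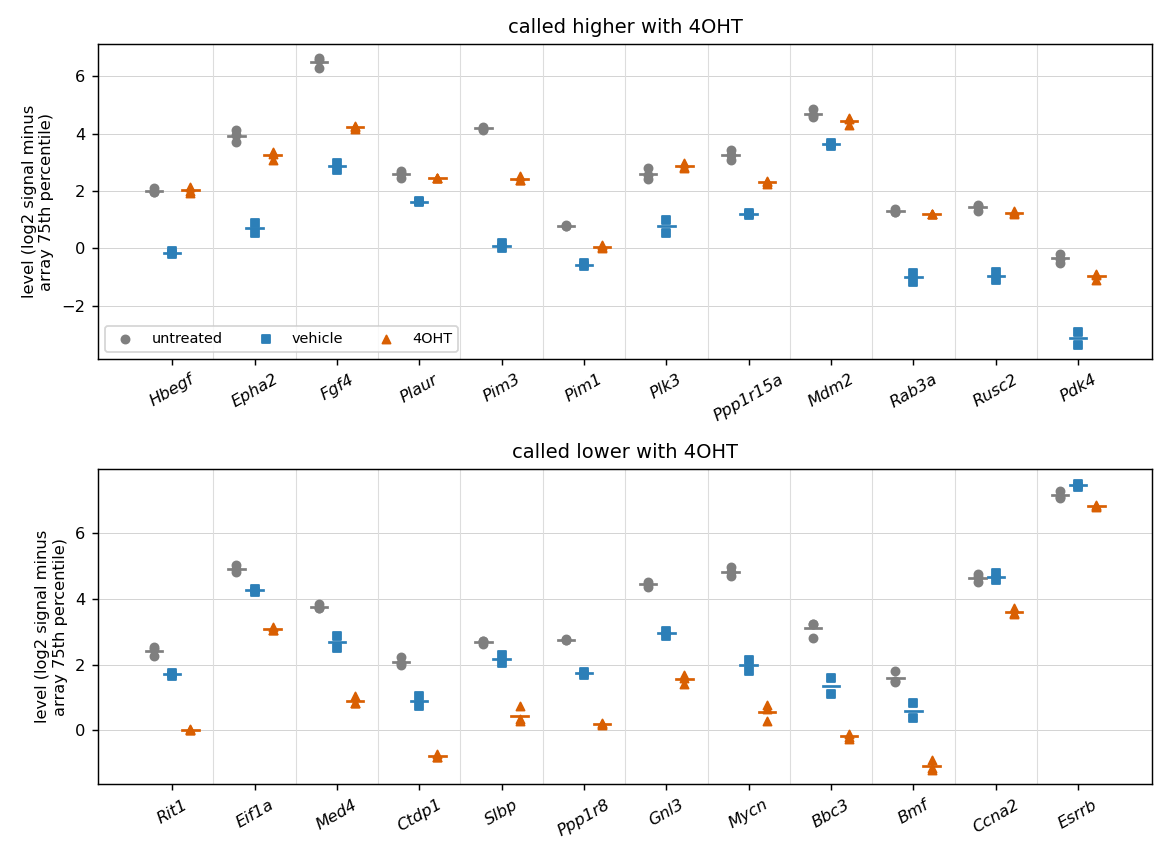
Level of 24 called genes on each array (log2 signal minus the array's 75th percentile), with untreated arrays as circles, vehicle arrays as squares, 4OHT arrays as triangles and each group's mean as a line. For Hbegf, Rab3a and Plk3 the 4OHT arrays lie near the untreated ones with the vehicle arrays below, for Rit1, Med4 and Ppp1r8 the 4OHT arrays lie below both other groups, and Ccna2 is lower with 4OHT although vehicle and untreated are close.

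Pim3, a kinase of the Pim family that acts downstream of LIF, read 0.00 and 0.18 with vehicle and 2.53, 2.37 and 2.38 with 4OHT, against 4.18 untreated. It was higher by 2.34 ± 0.10 (5.05-fold, adjusted p = 0.00161), and its relative Pim1 by 0.63 ± 0.09 (1.54-fold, adjusted p = 0.0176). These were the only 2 called members, both higher, of 25 measured genes of LIF and JAK-STAT signalling and Pim kinases, whose median was 0.05 (−0.26 on the spike-in scale). The 2 are 8% of that list, against 1.33% of features with a symbol. At an unadjusted p under 0.05, limma gave 5 higher and 2 lower there. Plk3, a stress-responsive polo-like kinase, read 0.98 and 0.55 with vehicle and 2.97, 2.79 and 2.84 with 4OHT, which put the 4OHT arrays slightly above the untreated mean of 2.59. Its difference was 2.10 ± 0.17 (4.28-fold, adjusted p = 0.00506).

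Rit1, a Ras-like GTPase, fell with 4OHT. It read 1.75 and 1.65 with vehicle and 0.04, 0.01 and 0.01 with 4OHT, where untreated cells read 2.42, so that 4OHT was lowest of the 3 groups. The fall was 1.68 ± 0.11 (3.21-fold, adjusted p = 0.00238). Mras, a Ras relative that activates Raf, went the other way by 0.66 ± 0.12 (adjusted p = 0.0324), but its other probes gave 0.13 and 0.33 and were not called (adjusted p = 0.689 and 0.372). Bcar1, a scaffold of integrin and kinase signalling, was lower by −1.33 ± 0.12 (adjusted p = 0.00732), from 1.86 and 1.68 to 0.42, 0.48 and 0.44. None of the 19 measured Raf, Mek, Erk and Rsk kinases was called (0 in either direction, and also 0 at an unadjusted p under 0.05 in limma), with a median of −0.08 and no difference beyond 0.59 in size. Pim3, Plk3, Rit1 and Bcar1 kept their calls whichever array was left out. Without vehicle replicate 1, Pim1 (adjusted p = 0.092) and Mras (0.14) lost them, and so they did without vehicle replicate 2 (0.0569 and 0.106).

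Early response and ERK feedback genes mostly did not pass. Actinomycin D preceded 4OHT, so the contrast was set up to compare the mRNA left of them. How complete the block was is not known here, and new synthesis was not tested. Of 32 measured immediate early genes, 3 were higher (9.38%) and 1 lower (3.12%), against 1.33% and 3.07% of features with a symbol. The median of the list was 0.08 (−0.23 relative to the spike-in probes). Besides Plk3, the higher members were Ier3, an early response survival factor, and Fos, an AP-1 transcription factor. Ier3 rose from −4.04 and −3.78 with vehicle to −2.56, −2.89 and −2.31, by 1.33 ± 0.21 (adjusted p = 0.0248; 0.37 and 0.172 with normexp), far below its untreated mean of 0.18. Fos was called (adjusted p = 0.0179) but was well above background in neither group, so no fold is given. Egr4, a zinc finger early response factor, has only a bound of at least 1.95-fold lower (adjusted p = 0.0338; −0.33 and 0.187 with normexp), because no 4OHT array was well above background. All untreated and vehicle arrays were, so the detection of Egr4 followed the slide, a pattern that itself fixes the direction. Egr1, the best known member of its family, did not differ measurably, at −0.08 with an interval of −0.60 to 0.44 (adjusted p = 0.894). Ptgs2, the inducible cyclooxygenase, lay outside the list and was higher by 1.28 ± 0.22 (adjusted p = 0.0318; 0.31 and 0.212 with normexp). Leaving out vehicle replicate 1, among others, ended the calls of Ier3 (adjusted p = 0.128), Fos (0.0894), Egr4 (0.171) and Ptgs2 (0.0572), while Plk3 kept its own.

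Of 22 measured ERK feedback genes, 0 were higher and 2 lower (9.09%, against 3.07% of features with a symbol). At an unadjusted p under 0.05 limma gave 4 higher and 5 lower, and the median of the list was 0.07 (−0.24 relative to the spike-in probes). With scaling to the array median or without scaling 0 were called, and 3 lower relative to the spike-in probes. Dusp6, the phosphatase that inactivates ERK in the cytoplasm, read −1.29 and −0.51 with vehicle and −0.32, −0.19 and −0.27 with 4OHT. The groups did not overlap, but the vehicle arrays lay further apart than the difference between the groups of 0.64 ± 0.22 (adjusted p = 0.186, interval 0.11 to 1.17). Without vehicle replicate 2 the value was 1.03 (adjusted p = 0.0479). Spry2, a Ras pathway inhibitor, stood at 0.09 (interval −0.25 to 0.43), and Phlda1 at 0.46 (interval 0.11 to 0.82, adjusted p = 0.159). Spry4, a second Sprouty inhibitor, was well above background on some arrays only, and its groups overlapped (adjusted p = 0.475). Dusp4, a nuclear ERK phosphatase, was well above background with vehicle only and was not called (adjusted p = 0.167). The called members were both lower. Dusp14, another dual-specificity phosphatase, stood at −0.89 ± 0.16 (adjusted p = 0.0362), and Etv5, an ETS factor downstream of FGF signalling, at −0.53 ± 0.11 (adjusted p = 0.046; −0.34 and 0.0941 with normexp). Etv5 read 7.36 and 7.21 with vehicle, 6.79, 6.68 and 6.78 with 4OHT and 6.59 on average untreated, whereas its relative Etv4 overlapped (−0.02, interval −0.65 to 0.60). Both calls were lost without any 1 of the 8 arrays (adjusted p up to 0.168 for Dusp14 and 0.203 for Etv5).

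**Figure D3:**
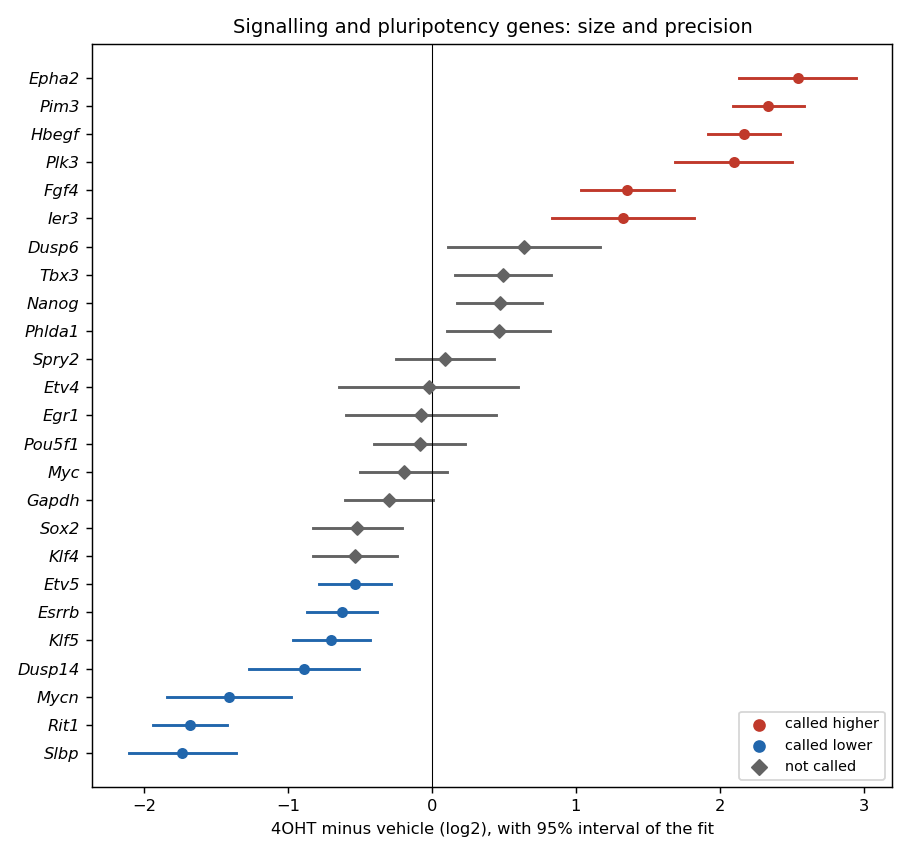
Difference between 4OHT and vehicle (log2) with its 95% interval from the limma fit for 25 signalling and pluripotency genes, in order of size. Epha2, Pim3 and Hbegf lie above 2 with intervals far from 0, the intervals of Spry2, Etv4, Egr1, Pou5f1, Myc and Gapdh include 0, and those of Dusp6, Tbx3, Nanog, Phlda1, Sox2 and Klf4 do not include 0 although their adjusted p was not under 0.05.

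The Myc genes differed from each other. Mycn, the family member abundant in embryonic cells, read 1.81 and 2.15 with vehicle and 0.29, 0.66 and 0.76 with 4OHT, far below 4.83 untreated. Its fall was 1.41 ± 0.18 (2.66-fold, adjusted p = 0.0153), and it was the single called gene of 12 in the Myc, Max and Mxd network (median −0.16). That is 8.33% of the list, against 3.07% of features with a symbol. Myc itself overlapped between the groups, at −0.20 with an interval of −0.50 to 0.11 (adjusted p = 0.466). Whether the 2 differences differ was not tested. Without vehicle replicate 1 or 2, or 4OHT replicate 2, Mycn lost its call (adjusted p = 0.0547, 0.0621 and 0.0531).

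Among 27 measured p53 targets, 4 were higher (14.8%) and 2 lower (7.41%), against 1.33% and 3.07% of features with a symbol. The median was 0.08 (−0.22 on the spike-in scale). The rises depended on the scale: 0 were called higher in limma with scaling to the array median, without scaling or relative to the spike-in probes, with 1, 1 and 2 lower. Mdm2, the ligase that degrades p53, read 3.57 and 3.69 with vehicle and 4.31, 4.51 and 4.55 with 4OHT, against 4.70 untreated. It was higher by 0.82 ± 0.13 (1.77-fold, adjusted p = 0.024). Gadd45a, a growth arrest factor, was higher by 0.82 ± 0.10 (adjusted p = 0.013), Tnfrsf10b, a death receptor, by 0.86 ± 0.10 (adjusted p = 0.0111), and Cdkn1a, an inhibitor of cyclin-dependent kinases, by 0.58 ± 0.11 (adjusted p = 0.0435; 0.33 and 0.109 with normexp). In all 4 the untreated mean lay above both groups.

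The pro-apoptotic p53 target Bbc3 moved the opposite way. It read 1.59 and 1.11 with vehicle and −0.25, −0.11 and −0.20 with 4OHT, where untreated cells averaged 3.10, a difference of −1.54 ± 0.19 (2.90-fold, adjusted p = 0.0132). Bmf, a second pro-apoptotic factor that holds only the BH3 domain, fell from 0.83 and 0.37 to −0.89, −1.21 and −1.15, by 1.68 ± 0.19 (3.21-fold, adjusted p = 0.0103). These 2 were the called members of 20 measured Bcl2 family genes (10% lower, against 3.07% of features with a symbol), in which 0 were higher. At an unadjusted p under 0.05 limma gave 0 higher and 5 lower, and the median was −0.16 (−0.47 on the spike-in scale). Sesn2, a stress-induced metabolic regulator, was lower too, by −0.71 ± 0.10 (adjusted p = 0.017). Leaving out vehicle replicate 1 ended the calls of Mdm2 (adjusted p = 0.124), Gadd45a (0.0711), Tnfrsf10b (0.0586), Cdkn1a (0.102), Bbc3 (0.0632), Bmf (0.0547) and Sesn2 (0.0805). For Bbc3 and Bmf no other array did so, while Cdkn1a was lost without any 1 of the 8 (up to 0.151).

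Genes of the integrated stress response had 1 rise (3.85%) and 2 falls (7.69%) among 26 measured members, with a median of −0.13. Of features with a symbol, 1.33% were higher and 3.07% lower. Ppp1r15a, the phosphatase subunit that restores translation after stress, read 1.23 and 1.16 with vehicle and 2.36, 2.24 and 2.31 with 4OHT, against 3.25 untreated, and was higher by 1.11 ± 0.13 (2.16-fold, adjusted p = 0.0105). Cebpb, a transcription factor of stress and differentiation, fell by 1.35 ± 0.15 (adjusted p = 0.0103; −0.72 and 0.00923 with normexp), and Sesn2 was the other fall. Ppp1r15a lost its call without vehicle replicate 1 or 2 (adjusted p = 0.0578 and 0.0504), and Cebpb without vehicle replicate 1 (0.0639).

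Several of the largest rises belonged to genes of unrelated functions. Rab3a, a GTPase of regulated secretion, read −1.16 and −0.86 with vehicle and 1.21 on each 4OHT array, close to 1.30 untreated, a difference of 2.23 ± 0.11 (4.68-fold, adjusted p = 0.00161). Rusc2, an adaptor protein that binds Rab GTPases, read −1.12 and −0.83 against 1.19, 1.29 and 1.22, and was higher by 2.21 ± 0.12 (4.62-fold, adjusted p = 0.00189). For both genes the 4OHT arrays lay about as far above the vehicle arrays as the untreated arrays did. Mllt11, a small protein first known from a leukaemia fusion, had the largest difference among features measured on all 5 arrays, at 2.70 ± 0.24 (6.51-fold, adjusted p = 0.00641), with 4OHT arrays of 2.58, 1.98 and 2.04 around an untreated mean of 2.42. Pdk4, the kinase that shuts off pyruvate dehydrogenase, was higher by 2.17 ± 0.16 (4.49-fold, adjusted p = 0.00418; 1.03 and 0.000613 with normexp), from −3.36 and −2.91 to −1.09, −0.90 and −0.92. Pdxp, a phosphatase of vitamin B6, was higher by 1.43 ± 0.14 (adjusted p = 0.00741), and its other probe gave 1.36. All 5 kept their calls whichever array was left out.

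Others of that size were lost with an array. Creb3l2, a membrane-bound transcription factor, was higher by 1.37 ± 0.17 (adjusted p = 0.0139; 0.0554 without 4OHT replicate 2). Enc1, an actin-binding ubiquitin ligase adaptor, was higher by 1.36 ± 0.20 (adjusted p = 0.0196; up to 0.0724 without 4OHT replicate 2). H2-DMb1, a chaperone of antigen loading, was higher by 1.29 ± 0.15 (adjusted p = 0.0113; 0.0612 without vehicle replicate 1). Its mean was −2.49 with vehicle, −1.20 with 4OHT and −2.10 untreated. Adcy9, an adenylate cyclase, was higher by 1.15 ± 0.20 (adjusted p = 0.0332; up to 0.133 without vehicle replicate 1). Prob1 had the largest difference of any symbol called higher, but neither vehicle array nor any untreated array was well above background, so it has a bound of at least 2.83-fold (adjusted p = 0.0075; 0.36 and 0.236 with normexp; 0.0533 without vehicle replicate 1).

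Some genes of the transcription machinery were called lower with 4OHT. Of 94 measured genes of RNA polymerase II, its general factors and Mediator, 0 were higher and 9 lower (9.57%). Of all features 2.58% were lower, and 3.07% of those with a symbol. The median of the list was −0.04 (−0.35 relative to the spike-in probes, still with 9 lower). With scaling to the array median or without scaling 2 were lower, with medians of 0.07 and 0.0012. At an unadjusted p under 0.05, limma gave 8 higher and 23 lower there. Med4, a Mediator subunit, read 2.88 and 2.52 with vehicle and 1.03, 0.82 and 0.82 with 4OHT, against 3.77 untreated. Its brightest probe differed by −1.81 ± 0.14 (3.50-fold, adjusted p = 0.00418), while its dimmer probe gave −0.55 ± 0.68, too imprecise to compare. Ctdp1, the phosphatase that recycles RNA polymerase II, read 1.05 and 0.74 with vehicle and −0.73, −0.81 and −0.81 with 4OHT, a fall of 1.67 ± 0.13 (3.19-fold, adjusted p = 0.00418). Both kept their calls whichever array was left out.

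Smaller falls in this group were lost more easily. Gtf2b, which recruits the polymerase to promoters, stood at −0.90 ± 0.12 (adjusted p = 0.0171) and Cdk7, the kinase of the general factor TFIIH, at −0.79 ± 0.10 (adjusted p = 0.0123). Med17, a Mediator core subunit, stood at −0.72 ± 0.09 (adjusted p = 0.0158), and Taf5l, a scaffold of histone acetylation complexes, at −0.66 ± 0.13 (adjusted p = 0.0438). Cxxc5, a DNA-binding protein with a CXXC zinc finger, lay outside the list and fell by 1.48 ± 0.13 (adjusted p = 0.00593), a call held without any array. Without vehicle replicate 1 the calls of Gtf2b (adjusted p = 0.0868), Cdk7 (0.0712), Med17 (0.0679) and Taf5l (0.105) were lost.

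RNA processing and decay factors were next. Slbp, which binds the stem-loop of histone mRNAs and is needed for their processing, read 2.31 and 2.06 with vehicle and 0.73, 0.33 and 0.29 with 4OHT, against 2.68 untreated. The fall was 1.74 ± 0.16 (3.33-fold, adjusted p = 0.00651), and its other probe fell by 1.5 ± 0.19 (adjusted p = 0.0137). Ppp1r8, a nuclear regulator of protein phosphatase 1, read 1.79 and 1.69 with vehicle and 0.20, 0.23 and 0.16 with 4OHT. It fell by 1.54 ± 0.09 (2.91-fold, adjusted p = 0.00189), and by 1.07 ± 0.11 on its other probe. Dbr1, the enzyme that opens intron lariats, fell by 1.34 ± 0.15 (adjusted p = 0.0103; 0.0572 without vehicle replicate 1). Slbp and Ppp1r8 kept their calls whichever array was left out.

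Histone mRNAs did not follow Slbp in the calls. Of 61 measured histone genes, 0 were higher and 1 lower, with 0 and 18 at an unadjusted p under 0.05 in limma. The median was −0.23 (−0.53 on the spike-in scale, −0.12 with normexp or with scaling to the median), 50 of the 61 differences were negative, and no scaling turned the median. The called gene was H2ac4, an H2A gene of the clustered kind, at −0.52 ± 0.10 (adjusted p = 0.0396), from 2.33 and 2.43 to 1.82, 1.82 and 1.94 where untreated cells averaged 6.86. Clustered histone genes are near-identical copies, so probes may read several of them. Among 15 measured histone mRNA processing factors, Slbp included, Zc3h8, a subunit of the little elongation complex, was higher by 0.70 ± 0.11 (adjusted p = 0.0218). Zfp473, which binds the histone 3′ processing machinery, was higher by 0.56 ± 0.10 (adjusted p = 0.032). H2ac4, Zc3h8 and Zfp473 lost their calls without vehicle replicate 1 (adjusted p = 0.125, 0.107 and 0.109) and without 4OHT replicate 2 (0.133, 0.0796 and 0.111).

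Of 68 measured genes of the mRNA decay machinery, 0 were higher and 5 lower (7.35%, against 3.07% of features with a symbol). At an unadjusted p under 0.05 limma gave 7 higher and 8 lower, and the median of the 68 genes was −0.02 (−0.32 relative to the spike-in probes). With scaling to the array median or without scaling, limma called 0 of them, and 3 lower relative to the spike-in probes. Subunits of the exosome, which degrades RNA from its 3′ end, made up most of these calls, with Exosc1 at −1.05 ± 0.14 (adjusted p = 0.0167), Exosc4 at −0.79 ± 0.10 (adjusted p = 0.0139) and Exosc6 at −0.57 ± 0.09 (adjusted p = 0.0278). Exosc1 read 0.55 and 0.62 with vehicle and −0.42, −0.47 and −0.52 with 4OHT, and its other probe fell further, by 1.67 ± 0.09 (adjusted p = 0.0018). Cnot2, a subunit of the CCR4-NOT deadenylase, stood at −0.67 ± 0.13 (adjusted p = 0.0465; −0.40 and 0.064 with normexp), and Lsm1, part of the ring that promotes decapping, at −0.49 ± 0.09 (adjusted p = 0.0363; −0.26 and 0.311 with normexp). Each of these 5 calls was lost without vehicle replicate 1 (adjusted p from 0.0701 for Exosc4 to 0.173 for Cnot2).

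Proteins that bind AU-rich elements, short 3′ sequences that mark mRNAs for rapid decay, included a rise. Zfp36l1, which recruits deadenylases to such mRNAs, read 3.33 and 3.37 with vehicle and 4.26, 4.37 and 4.37 with 4OHT, near its untreated mean of 4.18, and was higher by 0.99 ± 0.17 (1.98-fold, adjusted p = 0.0309). The adjusted p rose to 0.141 for Zfp36l1 without vehicle replicate 1. None of 5 measured Btg and Tob genes, which link deadenylases to growth arrest, was called (0, with 1 higher and 1 lower unadjusted in limma).

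Some genes of ribosome assembly and translation were called lower. Gnl3, the nucleolar GTPase nucleostemin of stem cells, read 3.03 and 2.87 with vehicle and 1.69, 1.59 and 1.41 with 4OHT, against 4.45 untreated, a difference of −1.39 ± 0.12 (2.62-fold, adjusted p = 0.00561). Pes1, a factor of large subunit assembly, fell by 1.52 ± 0.23 on its brightest probe (adjusted p = 0.0217), but its other probe gave −0.02 ± 0.09, so the probes disagree. Of 54 measured translation initiation factors, 1 was higher (1.85%) and 3 lower (5.56%), against 1.33% and 3.07% of features with a symbol (median −0.08). None of these 4 was called in limma (0 in either direction) with scaling to the array median or without scaling, and 3 were lower relative to the spike-in probes. Eif1a, a factor of start codon scanning, read 4.31 and 4.21 with vehicle and 3.13, 3.07 and 3.04 with 4OHT, a fall of 1.18 ± 0.10 (2.27-fold, adjusted p = 0.0058). Eif4e, the cap-binding protein, stood at −0.87 ± 0.12 (adjusted p = 0.0169), with −0.31 on a dimmer probe, and Eif2ak3, the stress kinase PERK, at −0.59 ± 0.08 (adjusted p = 0.0196). Eif1 was called higher by 0.46 ± 0.09 (adjusted p = 0.0417), yet its other probe stood at −0.27 ± 0.13, in the opposite direction. Gnl3 and Eif1a kept their calls whichever array was left out, and the others lost them without vehicle replicate 1 (adjusted p = 0.0787 for Pes1, 0.092 for Eif4e, 0.0805 for Eif2ak3 and 0.186 for Eif1).

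In contrast, none of the 85 measured cytosolic ribosomal protein genes was called (0, with 0 higher and 7 lower at an unadjusted p under 0.05 in limma). Their median was −0.17, with 79 of 85 differences negative and none beyond 0.36 in size. It was −0.47 on the spike-in scale and 0 to 2 decimals after quantile normalization, so this small common shift depended on the scaling. Mitochondrial ribosomal proteins had 0 higher and 4 lower of 76 (5.26%, against 3.07% of features with a symbol). Unadjusted, limma gave 2 higher and 17 lower, and the median was −0.07. Here too 0 were called with scaling to the array median or without scaling, and 3 lower relative to the spike-in probes. Mrpl43 was lowest at −0.81 ± 0.10 (adjusted p = 0.0131), and −0.90 ± 0.11 on its other probe. Mrps7 (−0.59 ± 0.09), Mrps26 (−0.55 ± 0.11) and Mrpl44 (−0.48 ± 0.09) followed, and all 4 were lost without vehicle replicate 1 (adjusted p from 0.0612 to 0.197).

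Among the cell cycle lists, members called lower were in those of mitosis and DNA replication. Of 45 measured mitosis and spindle genes, 0 were higher and 4 lower (8.89%, against 2.58% of all features and 3.07% of those with a symbol). At an unadjusted p under 0.05 limma gave 2 and 9, and the median was −0.06. The array-median scale and unscaled values gave 0 calls in limma, and the spike-in scale gave 4 lower. Plk1, the main mitotic polo-like kinase, fell by 1.12 ± 0.15 (2.18-fold, adjusted p = 0.0167), in the opposite direction to Plk3. Ccna2, cyclin A, read 4.78 and 4.58 with vehicle and 3.72, 3.55 and 3.58 with 4OHT. Its untreated arrays averaged 4.65, so only the 4OHT arrays stood apart, by −1.06 ± 0.12 (2.09-fold, adjusted p = 0.0103). Incenp, a scaffold of the chromosomal passenger complex, likewise stood at 6.45 untreated, 6.62 and 6.41 with vehicle and 5.65, 5.51 and 5.51 with 4OHT, a difference of −0.96 ± 0.13 (adjusted p = 0.0161), and its other probe gave −0.88. Wee1, the kinase that delays mitotic entry, fell by 0.99 ± 0.11 (adjusted p = 0.00954), and Ska3, a kinetochore protein outside the list, by 1.41 ± 0.11 (2.66-fold, adjusted p = 0.00506).

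Of 47 measured DNA replication genes, 0 were higher and 2 lower (4.26%, near the 3.07% of features with a symbol, and 2.58% of all features). At an unadjusted p under 0.05 limma gave 2 and 9, and their median was −0.10 (−0.40 relative to the spike-in probes). Again 0 were called in limma with scaling to the array median or without scaling, and 1 lower relative to the spike-in probes. They were Cdt1, which licenses replication origins, at −1.18 ± 0.12 (2.27-fold, adjusted p = 0.00919), and its inhibitor Gmnn at −0.52 ± 0.09 (adjusted p = 0.0362). Cdt1 read 4.76 and 4.48 with vehicle and 3.54, 3.45 and 3.34 with 4OHT, against 6.29 untreated. Among 27 measured G1 cyclins and regulators only Cdkn1a was called, and 0 were lower (2 lower unadjusted in limma). Of these cell cycle genes Ska3 kept its call whichever array was left out. Without vehicle replicate 1 the calls of Plk1 (adjusted p = 0.0795), Ccna2 (0.0586), Wee1 (0.0578), Incenp (0.0872), Cdt1 (0.0533) and Gmnn (0.117) were lost.

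Pluripotency factors showed small differences. None of 23 measured core pluripotency genes was called (0, with 2 higher and 1 lower at an unadjusted p under 0.05 in limma), and their median was −0.08 (−0.39 relative to the spike-in probes). Pou5f1, which encodes Oct4, read 7.70 and 7.88 with vehicle and 7.62, 7.78 and 7.71 with 4OHT, so the groups overlapped (−0.09, interval −0.40 to 0.23). Nanog read 4.38 and 4.43 with vehicle and 4.96, 4.97 and 4.69 with 4OHT, without overlap, but the difference of 0.47 ± 0.12 did not pass (adjusted p = 0.0979, interval 0.18 to 0.76). It passed with normexp (0.67, adjusted p = 0.0158) and with a trended and robust variance (adjusted p = 0.0392). Sox2 at −0.52 ± 0.13 (adjusted p = 0.0878) and Klf4 at −0.53 ± 0.12 (adjusted p = 0.072) were not called either, though both passed with that variance model (0.0403 and 0.026). Tbx3, a T-box factor of the naive state, stood at 0.49 ± 0.14 (adjusted p = 0.118).

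Of 30 measured naive pluripotency genes, 2 were higher and 2 lower (6.67% each, against 1.33% higher and 3.07% lower of features with a symbol). The higher pair were Fgf4 and Mras, described above, and the lower pair were transcription factors. Esrrb, an orphan receptor that sustains self-renewal, read 7.51 and 7.40 with vehicle and 6.79, 6.84 and 6.85 with 4OHT, against 7.15 untreated, a difference of −0.63 ± 0.10 (1.54-fold, adjusted p = 0.0277). Klf5, a Kruppel-like factor, fell from 4.00 and 3.88 to 3.36, 3.17 and 3.20, by 0.70 ± 0.11 (1.62-fold, adjusted p = 0.0269), and Klf13 by 0.59 ± 0.10 (adjusted p = 0.0267). Klf5 and Klf13 were the called members of 16 measured Kruppel-like factors (12.5% lower, against 3.07% of features with a symbol), in which 0 were higher. Unadjusted, limma gave 1 higher and 5 lower, and the median was −0.13. With scaling to the array median or without scaling 0 were called, and 1 lower relative to the spike-in probes. Esrrb, Klf5 and Klf13 lost their calls without either vehicle array (adjusted p up to 0.133, 0.132 and 0.127 without vehicle replicate 1).

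Developmental regulators outside the pluripotency lists gave a few falls of about 2-fold. Sox4 stood at −1.0 ± 0.15 (adjusted p = 0.0208) and the forkhead factor Foxo1 at −1.0 ± 0.13 (adjusted p = 0.016). They were the 2 called members of 49 Sox and forkhead genes, in which 0 were higher (2 higher and 7 lower unadjusted in limma). These 2 falls are 4.08% of that list, near the 3.07% of features with a symbol (2.58% of all features). With scaling to the array median or without scaling 0 of the list were called, and 2 lower relative to the spike-in probes. Id2, an inhibitor of basic helix-loop-helix factors, stood at −0.95 ± 0.14 (adjusted p = 0.0224), and Axin1, a scaffold that limits Wnt signalling, at −0.93 ± 0.14 (adjusted p = 0.0234). Both were the single called member of their lists, of 28 BMP and TGF-beta response genes and of 32 Wnt pathway genes. All 4 were lost without vehicle replicate 1 (adjusted p from 0.0872 for Axin1 to 0.116 for Id2).

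Markers of differentiated cells gave no calls. Of 21 measured primitive endoderm genes, 9 trophoblast markers, 9 mesendoderm and neuroectoderm markers and 9 feeder fibroblast markers, 0 were called in either direction. At an unadjusted p under 0.05 limma gave 0 higher in each of these lists, 1 lower among the primitive endoderm genes, 1 lower among the trophoblast markers and 0 in the other lists. Gata6, the factor that specifies primitive endoderm, was well above background in neither group, like Sox17, Sox7, Foxa2 and Pdgfra. The summed signal of the feeder markers (log2, relative to the 75th percentile) was 5.30 to 6.09 on the vehicle arrays and 5.33 to 6.13 on the 4OHT arrays, and that of the primitive endoderm genes was 9.06 to 9.34 and 8.98 to 9.28. The ranges were 4.12 to 5.79 and 4.20 to 5.78 for the trophoblast markers and 4.38 to 4.59 and 4.52 to 4.57 for the mesendoderm and neuroectoderm markers. The 2 groups overlapped in all 4 of these lists, while the embryonic stem cell markers summed to 10.26 to 10.28 with vehicle and 10.04 to 10.21 with 4OHT.

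**Figure D4:**
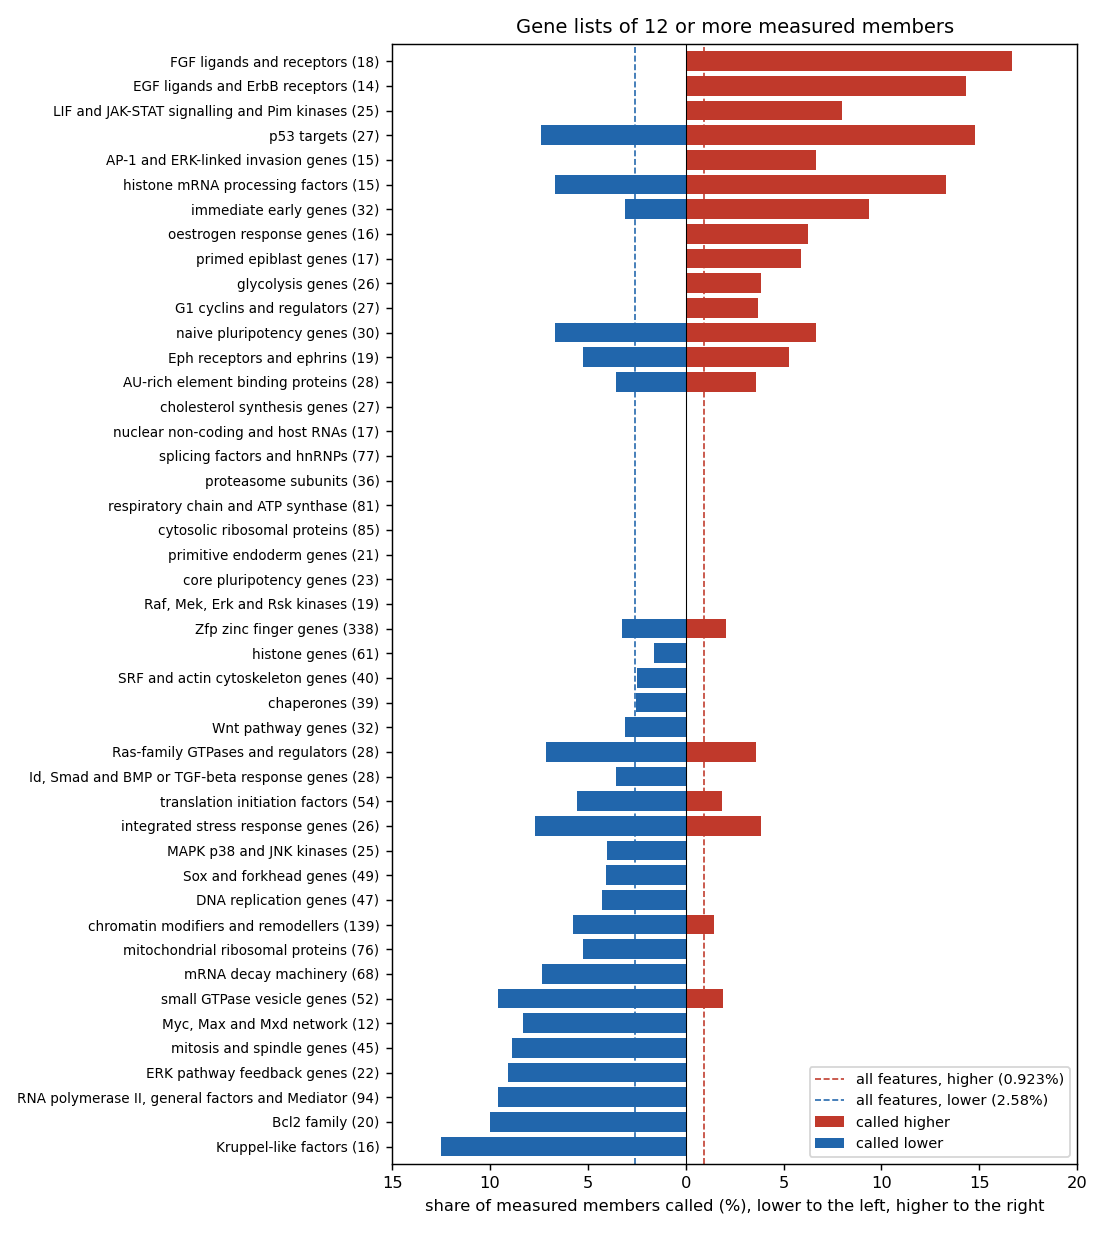
Share of measured members called lower (to the left) and higher (to the right) with 4OHT for each gene list of 12 or more measured members, with the share among all features as broken lines (0.923% higher and 2.58% lower) and the number measured in brackets. Ligand and receptor lists and p53 targets lie at the top with more members higher, while polymerase II and Mediator genes, Bcl2 family genes and Kruppel-like factors lie at the bottom with members lower only. Among features with a symbol, as all list members are, the shares were 1.33% higher and 3.07% lower.

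Over the 51 lists, 14 had no called member, 17 had members lower only, 8 higher only and 12 both. Over the 5 other scalings tried, the median of 40 lists took the opposite sign under at least 1 scaling and that of 11 did not, so a list's median has a direction only on the scale named. The lists and their members were chosen with earlier results of these data known, so their counts describe these arrays and are no independent evidence. Large lists of housekeeping function were quiet. Of 81 measured respiratory chain and ATP synthase genes 0 were called (0 higher and 3 lower unadjusted in limma), as were 0 of 36 proteasome subunits (0 and 2), 0 of 77 splicing factors and hnRNPs (2 and 7) and 0 of 27 cholesterol synthesis genes (2 and 1). Gapdh, a glycolytic enzyme often used as a loading control, stood at −0.30 (interval −0.61 to 0.01), and its other probes between −0.18 and 0.04. Of 26 glycolysis genes Pdk4 alone was called. The 16 measured oestrogen response genes, targets of the receptor that 4OHT binds, held 1 rise, Mybl1 at 0.82 ± 0.14 (adjusted p = 0.0309; 0.35 and 0.0868 with normexp), and 0 falls (1 lower unadjusted in limma), with a median of −0.15. Mybl1 lost its call without any 1 of the 8 arrays (adjusted p up to 0.14).

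Some of the largest falls were in dim features measured on 1 slide only. Of 520 features well above background on both vehicle arrays and on no 4OHT array, 96 were called lower, a direction that the selection itself fixes. Detection followed the slide in 306 features, well above background on all 5 untreated and vehicle arrays but on no 4OHT array, and 69 of them were called lower. The converse pattern of detection, on every 4OHT array and no other, was that of 3 features, Prob1 and 2 genomic intervals, where the selection likewise fixes the direction. These 69 hold 18 symbols, among them Egr4 and some receptors known from sensory or immune cells. The largest fall among symbols measured on all 5 arrays was that of Olfr945, an olfactory receptor, at −2.12 ± 0.23 (adjusted p = 0.00938; −0.54 and 0.0478 with normexp; 0.0547 without vehicle replicate 1). Tas2r118, a bitter taste receptor, read −4.04 and −3.26 with vehicle, −3.77, −3.68 and −3.97 untreated and −6.85, −6.64 and −6.39 with 4OHT, at least 1.75-fold lower (adjusted p = 0.00534). Fpr-rs6, a formyl peptide receptor, was at least 2.31-fold lower (adjusted p = 0.0117), Tm4sf19 at least 2.31-fold (adjusted p = 0.00727), Scgb2b2 at least 2.37-fold (adjusted p = 0.00919) and Kcnc4, a potassium channel, at least 2.25-fold (adjusted p = 0.0131). For Azgp1 and Gpr31b the bounds were 1.45-fold and 1.14-fold (adjusted p = 0.00189 and 0.0022). For Olfr608, which was well above background on the vehicle arrays but not on every untreated array, the bound was 1.18-fold (adjusted p = 0.00468). With normexp none of these 8 was called, with differences from −0.21 to −0.38. Fpr-rs6 (adjusted p = 0.074), Tm4sf19 (0.0525) and Kcnc4 (0.0672) also lost their calls without vehicle replicate 1. Slide and treatment cannot be told apart here either.

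Genes with several probes allow a check within each array. For 44 genes called higher, 53 other probes were well above background on all 5 arrays, of which 47 (88.7%) had the same sign and 13 were called higher themselves. For 89 genes called lower, 94 of 100 other probes had the same sign and 38 were called lower. No other probe was called in the opposite direction (0 in both groups of genes; in limma these other probes were fitted with all the rest). Among 3746 other probes of genes not called, 66.2% had the same sign. The other probes differed less on the whole, with medians of 0.42 against 0.69 for the called higher and −0.51 against −0.69 for the called lower, the brightest probes having been selected by the call.

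**Figure D5:**
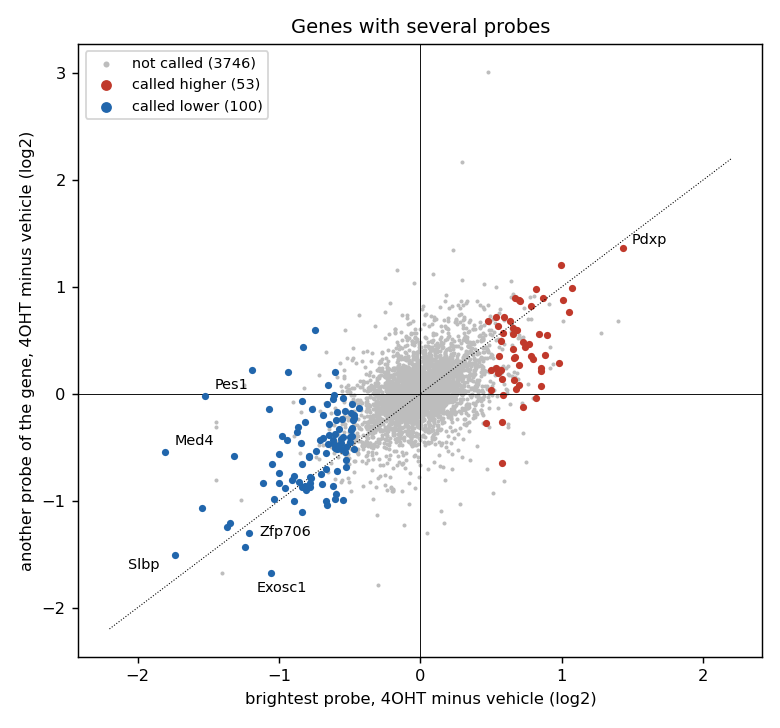
Difference between 4OHT and vehicle (log2) on another probe of a gene against that on its brightest probe, for probes well above background on all 5 arrays, with the dotted line marking equal values. Slbp, Zfp706 and Pdxp lie near the line, Exosc1 lies below it, and Pes1 differs much less on the other probe. The other probe of Med4 stands at −0.55 ± 0.68, too imprecise to compare.

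The calls rested on few arrays, and leaving out 1 array changed how many passed. Without vehicle replicate 1 there were 60 higher and 81 lower, and without vehicle replicate 2 there were 165 and 253. Without 4OHT replicate 1, 2 or 3 there were 119 and 415, 50 and 182, and 69 and 308. Leaving out an untreated array, which changes only the estimate of the spread, gave 123 and 378, 201 and 561, and 102 and 348. No feature was called in the opposite direction in any of these fits. Whichever of the 8 arrays was left out, 20 features remained called higher and 59 called lower, 15 and 42 of them with a symbol. Hbegf, Epha2, Pim3, Rab3a and Rusc2 among the higher, and Rit1, Ctdp1, Ppp1r8 and D230025D16Rik among the lower, were also called under every other alternative run. D230025D16Rik, an uncharacterised gene, read 2.02 and 1.74 with vehicle and −0.09, −0.02 and −0.03 with 4OHT, a difference of −1.93 ± 0.12 (3.80-fold, adjusted p = 0.0022). Ppcs, an enzyme of coenzyme A synthesis (−1.58 ± 0.16, adjusted p = 0.00919), and Nudt4, a diphosphoinositol phosphatase (−1.32 ± 0.13, adjusted p = 0.009; its other probe gave −0.58), were lower too and held whichever array was left out.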

How the data were processed

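Total RNA was hybridised to 8 single-colour Agilent arrays, and each deposited file holds 1 array with no replicates pooled. The deposited intensity values were written by Agilent Feature Extraction 11.0.1.1 as processed signal, background-subtracted within the array, per the file headers. The headers report the green channel, whereas the label names the dye Cy5. The deposited value table held the same intensity (largest relative difference 0.00497) on a linear scale without centring, with medians of 21.2, 45 and 24.6 (untreated), 12.2 and 13.9 (vehicle) and 13.5, 11.3 and 12.4 (4OHT).

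From these, log2 processed signal minus each array's 75th percentile over 59305 non-control spots was computed in R 4.3.3. Spots marked as outliers were dropped, spots of a probe were averaged, and 466 probes left without a value on some array were not used. Probes entered the test if, in 1 or more of the 3 groups, at least 0.5 of their spots were well above background on each array (33013 of 55681 probes), and the brightest probe stood for each symbol. This gave 28493 features, of which 14932 carry a symbol matched by accession to RefSeq (GRCm38, names only, since the headers name mm9), 7402 are genomic intervals and 6159 have another accession. limma 3.58.1 (lmFit, eBayes) was fitted to the 3 groups over all 8 arrays with 5 residual degrees of freedom, so the groups share 1 estimate of the spread. Tests were two-sided, with 95% intervals from the fit. Nothing in the labels beyond the stated biological replicates describes how cultures were separated, so p-values measure the spread between these arrays, and precision is limited by how few arrays there are. A bound ("at least N-fold") sets the brighter group's mean against, per array, the higher of the dim probe's own signal and the lowest signal well above background.

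Named genes are the largest called rises and falls measured on all 5 arrays, the largest of those measured in 1 group, up to 6 called in each direction of each of 51 gene lists, and a fixed set of signalling and pluripotency genes, and not every gene so allowed is printed, as some items are not reported here. The members and lists were chosen with earlier results of these data known. Alternatives covered background correction, scaling, filter, probe choice, variance model, replicate block and each array left out. The fit was tested on simulated data.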

Additional observations from a re-analysis of the deposited data

How the results depend on the processing

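Against 263 features higher and 734 lower, the counts were 300 and 529 with normexp background correction (offset 50), 232 and 541 with cyclic loess, 181 and 433 after quantile normalization, 78 and 163 with scaling to the array median, 17 and 75 without scaling, and 40 and 1196 relative to the spike-in probes. They were 25 and 76 of 48602 features without a filter on dim probes, 322 and 731 with signal required on all 5 arrays, 257 and 697 with the mean of a gene's probes, 18 and 48 from the 5 compared arrays alone, 418 and 937 with a trended and robust variance, and 78 and 290 with a 2-fold minimum as well. The deposited value table gave the same 263 and 734. With 1 of the 8 arrays left out, the counts ranged from 50 to 201 higher and from 81 to 561 lower. In none of these fits was a feature called in the direction opposite to its reported call. With the replicate number as a block, 8 were higher and 12 lower. The numbers were not shown to pair the arrays, since deviations of same-numbered arrays correlated at 0.364 and 0.222 between vehicle and 4OHT but at −0.191 to 0.108 with the untreated arrays. With the slide as a fixed block the contrast could not be fitted, because each compared group lies on 1 slide. The causes of these shifts were not tested.

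Of 129 called features named here or in the gene lists, 9 kept their call under every alternative, 33 kept it whichever array was left out, and 0 turned direction. Among the arrays left out, vehicle replicate 1 ended the most of these calls (95), followed by 4OHT replicates 2 (72) and 3 (63) and vehicle replicate 2 (60), while the replicate block ended 115, the fit of the 5 arrays alone 105, no scaling 97, no filter on dim probes 93 and scaling to the median 82. Only genes not called changed sign. Egr1 stood at 0.0333 with scaling to the median, 0.071 without vehicle replicate 2 and 0.0144 without 4OHT replicate 2, within a leave-one-out range of −0.23 to 0.07. Spry2 stood at −0.22 relative to the spike-in probes and −0.0044 without vehicle replicate 2 (leave-one-out range −0.0044 to 0.18). Etv4 stood at 0.0167 with normexp, 0.0878 with scaling to the median, 0.0176 without scaling, 0.20 without vehicle replicate 2 and 0.19 without 4OHT replicate 1 (range −0.25 to 0.20). Pou5f1 stood at 0.0047 after quantile normalization, 0.0266 with scaling to the median and 0.0032 without vehicle replicate 2 (range −0.17 to 0.0032). Dusp4, not called, passed relative to the spike-in probes (−1.31, adjusted p = 0.0335 in limma). Differences of probes near background are the least certain, because an added offset shrinks them by construction.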

Other observations

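Chromatin genes held calls in both directions, with 2 higher and 8 lower among 139 measured modifiers and remodellers (median 0.01). These are 1.44% and 5.76%, against 0.923% and 2.58% of all features and 1.33% and 3.07% of those with a symbol. With scaling to the array median or without scaling 0 were called in either direction. Relative to the spike-in probes 0 were higher and 3 lower. Arid1a, a DNA-binding subunit of the BAF remodelling complex, read 3.33 and 2.82 with vehicle and 2.22, 1.89 and 1.96 with 4OHT, a difference of −1.05 ± 0.17 (limma adjusted p = 0.0285), and its other probe gave −0.66. Arid2, of the related PBAF complex, stood at −1.19 ± 0.14 (adjusted p = 0.0119), but its other probe gave 0.22, so the probes disagree. Kat8, a histone H4 acetyltransferase, stood at −0.64 ± 0.09 (adjusted p = 0.0216) and Setd2, a histone H3 methyltransferase, at −0.65 ± 0.12 (adjusted p = 0.0414). Chd9, a chromodomain helicase, was higher by 0.64 ± 0.12 (adjusted p = 0.0411). All 5 lost their calls without vehicle replicate 1, with adjusted p up to 0.188 over the arrays left out.

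Of 52 measured Rab genes and other small GTPases of vesicle traffic, 1 was higher (Rab3a, 1.92%) and 5 were lower (9.62%), with a median of −0.10. Of features with a symbol, 1.33% were higher and 3.07% lower. With scaling to the array median or without scaling 1 was higher and 0 lower, and relative to the spike-in probes 1 and 5. Rab9, of transport from late endosomes, stood at −0.89 ± 0.13 (limma adjusted p = 0.02), with −0.77 and −1.0 on its other probes, and Rab14, of endosomal recycling, at −0.71 ± 0.10 (adjusted p = 0.0186). Among 338 measured Zfp zinc finger genes 7 were higher (2.07%) and 11 lower (3.25%), with a median of −0.02. Over all features the shares were 0.923% and 2.58%, and over those with a symbol 1.33% and 3.07%, near the shares of this list. Scaling to the array median gave 2 higher and 1 lower, no scaling 0 and 1, and the spike-in scale 0 and 15. Zfp706 read 4.46 and 4.16 with vehicle and 3.19, 3.06 and 3.04 with 4OHT, a difference of −1.22 ± 0.12 (adjusted p = 0.00829). Its other probe gave −1.30, and Zfp706 kept its call whichever array was left out. Zfp507 was higher by 0.89 ± 0.10 (adjusted p = 0.0101; 0.0543 without vehicle replicate 1). Rab9 and Rab14 were lost without vehicle replicate 1 (adjusted p = 0.105 and 0.0977).

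Features without a gene symbol held calls too, in shares that were not tested against those of other features. Of 7402 genomic intervals, 34 were higher (0.459%) and 154 lower (2.08%), with a median of −0.10. The interval chr9:20784567-20799942 (mm9, forward strand; probe A_30_P01033047) was at least 3.14-fold higher (limma adjusted p = 0.00506; 0.44 and 0.0763 with normexp), and chr12:73838608-73862621 (probe A_30_P01019203) at least 2.27-fold (adjusted p = 0.006; 0.31 and 0.254 with normexp). Both were detected in no untreated or vehicle array and were chosen after their values were seen. The interval chr1:71730139-71730720 (probe A_30_P01030172) was lower by −1.66 ± 0.30 (adjusted p = 0.0363), a call lost without 7 of the 8 arrays (up to 0.129). What these intervals hold in the mm9 annotation was not analysed here.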
